A study of Mus musculus with 4 samples.

Results

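The genes described here encode subunits of the mitochondrial respiratory chain and ATP synthase. A gene was a member when at least 1 probe set of the array carried its symbol alone and that symbol began with Nduf followed by a, b, c, s or v and a digit, with Uqcr, with Cox4 to Cox8 or with Atp5, or was Sdha, Sdhb, Sdhc or Sdhd. This gave 81 of 18193 genes named on the array: 35 of complex I, 4 of complex II, 8 of complex III, 17 of complex IV and 17 of complex V. Of the 81, 78 were left after probe sets of low signal were removed, among 13331 genes tested in all. The 3 others (Ndufb4, Cox6b2 and Cox7a1) were read only by dim probe sets.

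The arrays measured 4 mouse mammary tumours, 1 array for each. Both groups of tumours grew in nude mice, which lack a thymus, after transplantation of Eph4, a line of mammary epithelial cells from the mouse, and both carried ETV6-NTRK3, a fusion oncogene that couples the transcription factor ETV6 to the kinase of the neurotrophin receptor NTRK3. The 2 Eph_EN_DN tumours had TAM67 as well, a dominant negative c-Jun (an AP-1 subunit), and the 2 Eph_EN tumours had the fusion without it, so the comparison addressed which expression differences accompany a block of AP-1. The promoters of the constructs, the number of clones and the age of the tumours are not given in the sources used here, and the labels do not say if both tumours of 1 group stem from independent cultures, so the p-values measure only the spread between these samples. Each tumour also holds cells of the host mouse, and in bulk tissue fewer cells of a type and less RNA per cell cannot be told apart.

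Complex I takes electrons from NADH and complex II takes them from succinate, both pass them to ubiquinone, complex III moves them on to cytochrome c, and complex IV hands them to oxygen. Complexes I, III and IV pump protons across the inner membrane, and complex V, the ATP synthase, lets them return and makes ATP. Nuclear genes encode all of complex II and most subunits of the others, while a few core subunits come from mitochondrial DNA. Some subunits of complex IV exist as paralogues that replace each other in heart and skeletal muscle, brown fat, lung or testis. Tumours differ widely in how far they rely on this chain or on glycolysis.

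Epithelial markers were present in both groups: 8 of 9 passed the filter on dim probe sets, and the 9 summed to 3101 and 3326 intensity units in the Eph_EN_DN tumours and 3727 and 3951 units in the Eph_EN tumours. Krt8, a keratin of simple epithelia, read 1596 and 1469.6 against 2048 and 2017 units, while Cldn3, a tight junction protein, read 263 and 267 against 231 and 225 units, and Krt14 and Cdh1 also had a higher mean in Eph_EN_DN. Krt19, which did not pass, was at 3.41 to 15.8 units. The array medians were 38.1 and 40.8 units in Eph_EN_DN and 35.6 and 35.9 units in Eph_EN tumours. The signal at the 3' end over that at the 5' end was, for Gapdh, 1.17 and 1.11 in Eph_EN_DN against 0.938 and 1.04 in Eph_EN tumours. For beta-actin it was 1.31 and 1.34 in the Eph_EN_DN group, against 1.11 and 1.19. The summed signal of 10 adipocyte markers was 1847 and 6862 units in Eph_EN_DN and 1001 and 761 units in Eph_EN tumours, with Lep at 12.1 to 34.2 units on the 4 arrays, and 4 of the 9 markers tested were called higher by limma. The summed signal of 8 fibroblast markers was 14309.8 and 12478 against 15239 and 21637 units. Of the 8 only Dcn went the other way, at 3519 and 3729 against 2708 and 3337 units. The sum of 7 macrophage markers was 10075 and 7723 against 14586 and 12719 units, with only Mrc1 higher on average in Eph_EN_DN. Endothelial markers (6) summed to 367 and 414 against 485 and 631 units, with 0 of the 4 tested positive. Mural cell markers (7) summed to 1428 and 1320 against 1524 and 1812 units, with 3 of 7 positive. The 18S RNA control signal, in log2(intensity + 16), was 6.76 and 7.43 in Eph_EN_DN against 5.43 and 6.40 in Eph_EN tumours. The array medians, the ratios, the 18S signal and these sums separated the groups. So did the sum of 14 skeletal muscle markers (597 and 669 against 475 and 446 units), with 7 of 14 past the filter and Mb at 1.19 to 19.0 units. Of these 7, 5 were positive, led by Myh1 (142 and 163 against 39.0 and 59.6 units, the 1 called higher), and Ckm and Atp2a1 were not. The part of the medians, ratios, 18S signal and markers in the results was not tested.

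No respiratory chain gene differed between the groups past the threshold. A difference is Eph_EN_DN minus Eph_EN in log2(intensity + 16), from 2 tumours against 2, and adjusted p-values come from limma over all 13331 genes, with a threshold of 0.05. Of the 78 members tested, 0 were higher and 0 lower, where 0.135% of all genes were higher and 0.420% lower. At an unadjusted p under 0.05 there were 8 members, or 10.3%, which lies near the 9.80% of all genes. Of these 8, 6 were positive and 2 negative, where 4.86% of all genes were positive and 4.94% negative at that p. The members ranged from -0.56 (Uqcrc1) to 1.27 (Cox7b2), with a median of 0.094 and quartiles of -0.047 and 0.22, whereas all genes tested had a median of 0.019 and quartiles of -0.19 and 0.23. The 95% interval of the difference lay between -1 and 1, that is within a 2-fold difference either way, for 71 of 78 members (91.0%) and for 78.6% of all genes. The 7 others were Ndufa9, Ndufa2, Ndufa5, Uqcrc1, Cox7b2, Cox7c and Cox8b. The fit has an intensity trend, in which brighter genes tend to have smaller standard errors (0.17 for the bright Uqcrb, 0.31 for the dim Cox7c). Members and all genes were not matched for brightness, so the 2 shares do not compare how constant they were.

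By complex, the median difference was 0.17 for complex I, -0.11 for complex II, 0.032 for complex III, 0.10 for complex IV and 0.0018 for complex V. Centring each array on its median moved all genes down by 0.099 and with them the median of all members to -0.0048 and that of complex V to -0.097, while complex I kept a positive median of 0.068. Relative to the median of all genes, complex I stood 0.15 higher, or 0.096 without Eph_EN_DN tumour 2 and 0.21 without Eph_EN_DN tumour 1. Both Eph_EN_DN tumours read above both Eph_EN tumours in 26 of the 78 members (33.3%), against 20.2% of all genes, and below them in 6 (7.69%), against 20.0% of all genes. With centred arrays the counts were 15 and 11. The share of all genes is not given for centred arrays, so these counts cannot be set against the percentages above.

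**Figure D1:**
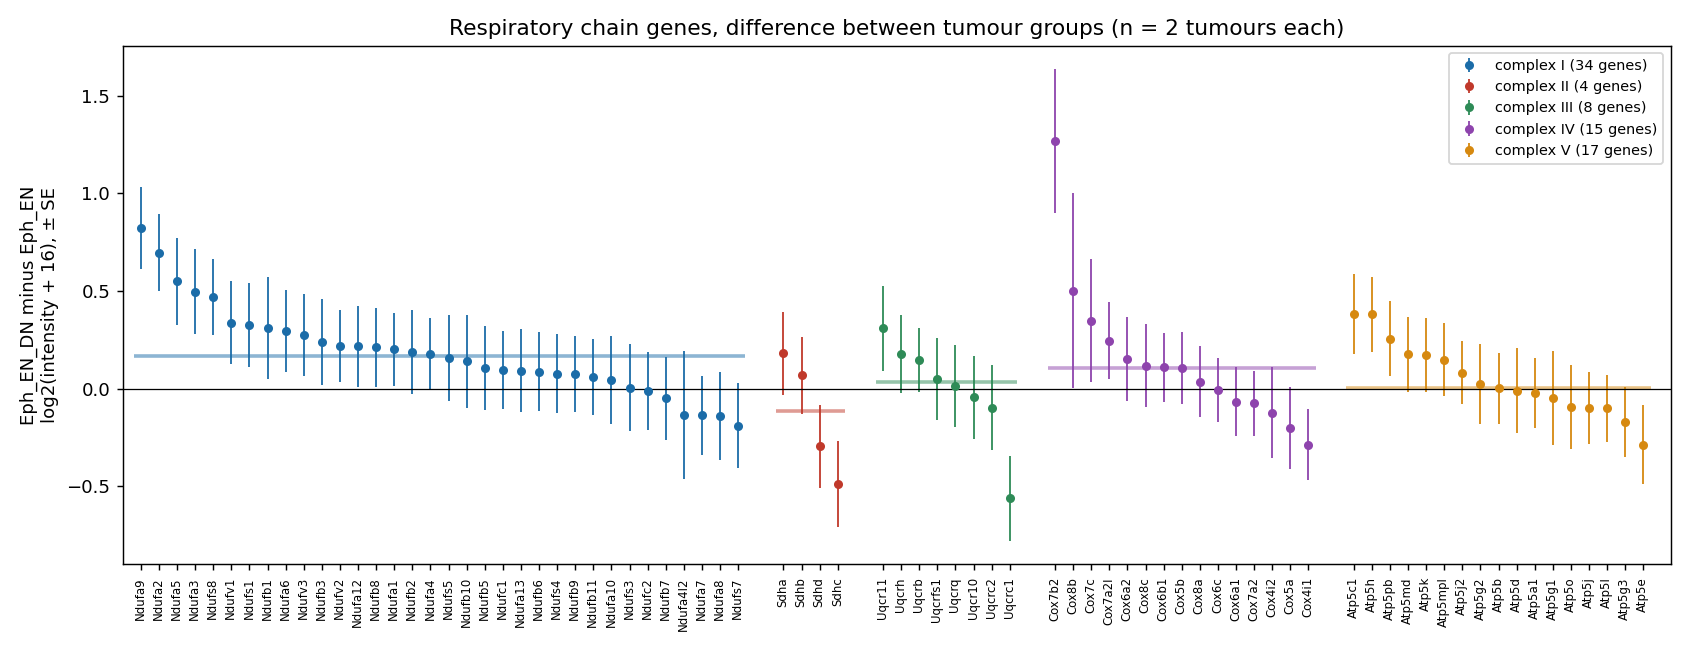
Difference of each of the 78 members (points, Eph_EN_DN minus Eph_EN, log2(intensity + 16), bars ± SE, n = 2 tumours each) ordered within complex I to V, with the median of each complex as a horizontal line. Complex I has 28 of 34 points above 0 and a median of 0.17, and the values run from Cox7b2 at 1.27, Ndufa9 at 0.83 and Ndufa2 at 0.70 down to Uqcrc1 at -0.56.

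To show the regulatory sequence of members at both ends of this range, the windows from 250 bases before to 50 bases after the annotated start are printed from RefSeq (GRCm38.p6) for the most positive members with a window, Cox7b2 and Ndufa9, and for the most negative, Uqcrc1. Capitals mark matches on either strand to letters bound by NRF1 (GCGCA, any base, then GCGC), which is known to drive many nuclear genes of the respiratory chain, by YY1 (AANATGGC), by ETS factors (CCGGAAGT, no match in these windows) or by AP-1 (TGANTCA). Cox7b2 lies at chr5:71548156-71548455 on the minus strand, Ndufa9 at chr6:126849095-126849394 on the minus strand, and Uqcrc1 at chr9:108936398-108936697 on the plus strand.
Cox7b2: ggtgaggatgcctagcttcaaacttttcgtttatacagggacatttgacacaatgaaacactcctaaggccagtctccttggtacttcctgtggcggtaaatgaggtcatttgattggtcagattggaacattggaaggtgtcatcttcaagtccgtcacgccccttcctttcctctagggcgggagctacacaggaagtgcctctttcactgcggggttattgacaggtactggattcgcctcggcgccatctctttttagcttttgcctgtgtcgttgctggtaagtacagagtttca
Ndufa9: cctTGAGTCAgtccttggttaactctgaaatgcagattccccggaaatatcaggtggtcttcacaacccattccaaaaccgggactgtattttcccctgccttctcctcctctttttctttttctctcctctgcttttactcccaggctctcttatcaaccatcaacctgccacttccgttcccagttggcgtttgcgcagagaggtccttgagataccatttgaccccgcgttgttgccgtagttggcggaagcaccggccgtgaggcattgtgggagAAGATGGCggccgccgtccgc
Uqcrc1: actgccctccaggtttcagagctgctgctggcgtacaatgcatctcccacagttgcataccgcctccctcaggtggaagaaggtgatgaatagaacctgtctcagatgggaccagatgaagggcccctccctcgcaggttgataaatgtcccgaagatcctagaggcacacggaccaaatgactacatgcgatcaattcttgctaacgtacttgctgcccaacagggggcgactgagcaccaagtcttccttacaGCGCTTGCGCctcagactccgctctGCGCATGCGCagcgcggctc
The Cox7b2 window holds none of the 4 sets of letters. The Ndufa9 window holds the AP-1 letters 247 bases before the start and the YY1 letters at base 29 after it, and the Uqcrc1 window the NRF1 letters in 2 places, at bases 5 and 30 after the start.

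Among the 66 of 81 members with such a window in the table, 15 (22.7%) held the NRF1 letters, against 10.3% of 10645 genes tested that had a window and 5.19% of all 27025 genes in the table. The YY1 letters stood in 15 members (22.7%, against 9.15% and 6.96%), 11 of them genes of complex I. The AP-1 letters stood in 7 (10.6%, against 7.01% and 8.97%) and the ETS letters in 5 (7.58%, against 8.09% and 4.31%). The 7 members with the AP-1 letters were Ndufa13, Ndufa5, Ndufa9, Uqcrh, Cox7c, Atp5g1 and Atp5c1. Their differences ran from -0.049 (Atp5g1) to 0.83 (Ndufa9), with 6 positive and a median of 0.35. That median is the value of Cox7c, read by a dim probe set (45.8 and 46.1 against 38.1 and 27.8 units, 0.35 ± 0.31). A gene with more than 1 window counted when any of them matched, as for Ndufa5 and Atp5c1. The 56 tested members whose windows lacked the AP-1 letters had 39 positive and a median of 0.091. Members with the ETS letters had 5 of 5 positive and a median of 0.18, against 40 of 58 and 0.10 without them. For the YY1 letters the medians were 0.096 with them (15 tested, 12 positive) and 0.11 without (48 tested, 33 positive). For the NRF1 letters they were 0.090 with them (14 tested, 8 positive) and 0.10 without (49 tested, 37 positive). A match of letters is not a measured binding event, and binding was not measured in these tumours.

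Complex I, the NADH dehydrogenase, gave 28 of 34 positive differences, which is 82.4% where 52.2% of all genes were positive. Both Eph_EN_DN tumours read above both Eph_EN tumours in 15 members (44.1%) and below them in 0, against 20.2% and 20.0% of all genes. With centred arrays the count of 15 became 9, and the share of all genes is not given for that setting. The 15 included Ndufa4, which is now known as a component of complex IV. Ndufab1, a further complex I subunit whose symbol misses the rule, was counted with the electron carriers. It read 298 and 278 units in Eph_EN_DN against 373 and 405 units in Eph_EN tumours, lower without overlap (-0.41 ± 0.21, adjusted p = 0.556). The complex I median relative to the Eph_EN mean was 0.11 in Eph_EN_DN tumour 1 and 0.22 in tumour 2, with the Eph_EN tumours at -0.095 and 0.095, so that Eph_EN_DN tumour 1 and Eph_EN tumour 2 stood close to each other.

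Ndufa9, an accessory subunit at the junction of the membrane and matrix arms, read 457 and 489 units in the Eph_EN_DN tumours, against 259 and 260.2 units in the Eph_EN tumours. The groups were far apart beside the spread within them. The difference was 0.83 ± 0.21 (SE, 95% interval 0.38 to 1.27), and its adjusted p of 0.120 was the smallest of any member and missed the threshold. Over the 15 other settings its difference ran from 0.73 to 0.87 and its adjusted p from 0.0674 to 0.497.

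Ndufa2, an accessory subunit near the site of NADH oxidation, read 1307 and 1396 units in Eph_EN_DN tumours and 751 and 911 units in Eph_EN tumours. The lower Eph_EN_DN tumour was well above the higher Eph_EN tumour, with a difference of 0.70 ± 0.20 (adjusted p = 0.190). Ndufa5, an accessory subunit of the ubiquinone-reducing part, read 526 and 569.8 units against 311 and 436 units (0.55 ± 0.22, adjusted p = 0.423). Ndufa3, an accessory subunit of the membrane arm, read 964 and 888 units in Eph_EN_DN tumours and 545 and 777 units in Eph_EN tumours (0.50 ± 0.22, adjusted p = 0.466). For both genes the wider spread lay in the Eph_EN tumours, where tumour 2 was the higher.

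The core subunits, which carry the flavin and the iron-sulphur clusters, had differences on both sides of 0. Ndufs8, an iron-sulphur subunit close to ubiquinone, read 1253 and 1236 units in Eph_EN_DN tumours and 922 and 867 units in Eph_EN tumours, a difference of 0.47 ± 0.19 (adjusted p = 0.430) without overlap. Ndufv1, which binds NADH and the flavin, was at 0.34 (its other probe sets were at 0.31 and -0.051), Ndufs1, which holds further clusters, at 0.33 and Ndufv2, their neighbour, at 0.22. Ndufs7, the subunit that holds the last cluster before ubiquinone, read 279 and 347 units against 334 and 382 units, with overlapping groups. Its difference was the most negative among the complex I members (-0.19 ± 0.22). Ndufs3 was at 0.0056. The next most negative, Ndufa8 of the membrane arm, was at -0.14, with 407 and 448 units in Eph_EN_DN against 395 and 562 units in Eph_EN tumours.

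Divided by position, a grouping chosen after the values were seen, the 14 tested genes of the matrix arm had a median difference of 0.29 and the 18 of the membrane arm one of 0.10. The Eph_EN_DN tumours read above the Eph_EN tumours in 9 matrix arm genes (64.3%) and 5 membrane arm genes (27.8%), against 20.2% of all genes. The median of the matrix arm stood at 0.26 and 0.32 in the Eph_EN_DN tumours and at -0.11 and 0.11 in the Eph_EN tumours. For the membrane arm these medians were 0.026 and 0.21 against -0.10 and 0.10, which overlap.

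**Figure D2:**
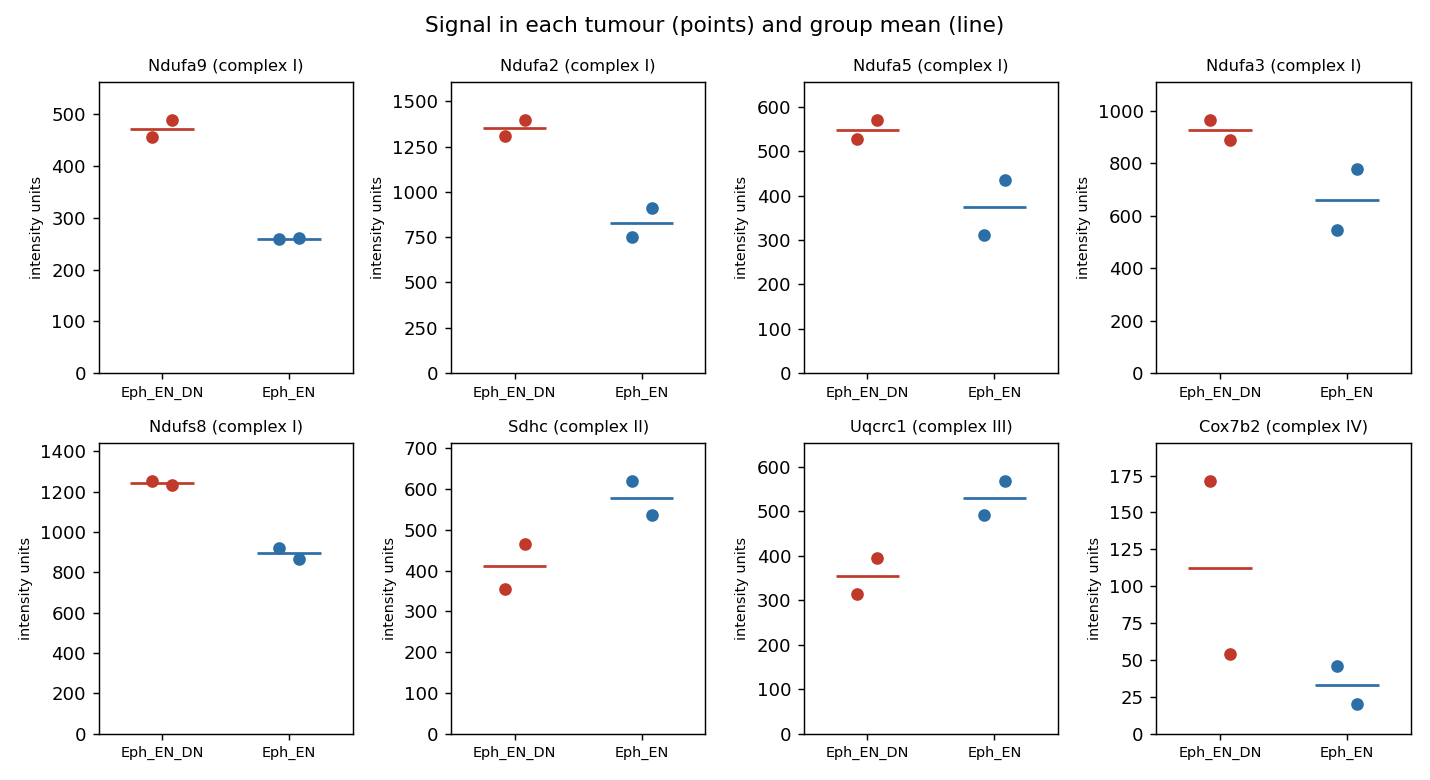
Signal in each tumour (points, intensity units, linear axis from 0) and group mean (line) for the 8 members with an unadjusted p under 0.05, with Eph_EN_DN left of Eph_EN. In each panel the points of the groups do not overlap: the 5 complex I genes and Cox7b2 are higher in Eph_EN_DN, and Sdhc and Uqcrc1 are lower. None passed the adjusted threshold.

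Complex II had 2 positive and 2 negative differences. Sdhc and Sdhd, the membrane anchors that hold the ubiquinone site, were lower in both Eph_EN_DN tumours, at 355 and 466 against 619.9 and 537 units for Sdhc (-0.49 ± 0.22, adjusted p = 0.478) and at 413 and 385 against 536 and 454 units for Sdhd (-0.30 ± 0.21, adjusted p = 0.698). Neither passed the test. Sdha, the flavoprotein that oxidises succinate, read 427 and 464 units in Eph_EN_DN and 356 and 429 units in Eph_EN tumours (0.18 ± 0.21), and Sdhb, the iron-sulphur subunit, 917 and 1017 against 962 and 881 units (0.068 ± 0.20, or -0.031 with centred arrays). Both catalytic subunits had overlapping groups. The second probe set of Sdhc differed by -0.54, with 276 and 293 units against 412 and 429 units, and the dimmer probe set of Sdhd by 0.14, so of these anchors Sdhc had 1 sign in both of its probe sets and Sdhd did not.

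In complex III the differences lay on both sides of 0. Uqcrc1, a core protein on the matrix side, read 315 and 395 units in Eph_EN_DN tumours and 491 and 568 units in Eph_EN tumours. Its groups did not overlap, and the difference of -0.56 ± 0.22 (95% interval -1.02 to -0.10, adjusted p = 0.393) was the most negative of the whole chain. Its partner Uqcrc2 read 493 and 674 units in Eph_EN_DN against 609 and 628 units in Eph_EN tumours (-0.098 ± 0.22), or 313 and 347 against 236 and 262 units with its second probe set (0.38). Uqcrfs1, the Rieske iron-sulphur protein, was at 0.051. Uqcr11, a small subunit, had the largest positive difference, with 370.4 and 487 units against 345 and 335 units (0.31 ± 0.22, adjusted p = 0.694), followed by the hinge protein Uqcrh at 0.18. Uqcrb, a small ubiquinone-binding subunit, read 4052 and 3754 units in Eph_EN_DN and 3206 and 3866 units in Eph_EN tumours (0.15 ± 0.17), or 727 and 727 against 473 and 576 units with its second probe set (0.47).

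In complex IV, cytochrome c oxidase, Cox4i1 had the most negative difference and the subunits found in most tissues lay on both sides of 0. Cox4i1, the largest nuclear-encoded subunit, read 1859 and 2394 units in Eph_EN_DN and 2594 and 2561 units in Eph_EN tumours, a difference of -0.29 ± 0.18 (adjusted p = 0.653). Both Eph_EN_DN tumours were below, but the difference was -0.11 without Eph_EN_DN tumour 1, -0.47 without Eph_EN_DN tumour 2 and -0.11 with quantile normalization. Cox5a, which lies on the matrix side, was at -0.20 with 1244 and 1071 against 1129.8 and 1565 units, and its other probe sets were at -0.49 and -0.29, so that all 3 were negative. Cox7a2 read 3907 and 3316 units against 3573 and 4024 units (-0.075, or 0.049 with quantile normalization). Cox6a1 was at -0.066 (0.068 with quantile normalization), Cox8a at 0.035 (-0.063 with centred arrays) and Cox6b1 at 0.11, all 3 with overlapping groups. Cox7a2l, a relative of Cox7a2 that links complexes III and IV into supercomplexes, read 1026 and 1208 units in Eph_EN_DN and 925 and 947 units in Eph_EN tumours (0.25 ± 0.20, adjusted p = 0.732), and its 3 probe sets were at 0.25, 0.24 and 0.34.

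Among the forms restricted to some tissues, Cox7b2, a testis form, had the largest difference of the chain and rested on single tumours. It read 171 and 53.7 units in Eph_EN_DN and 45.9 and 20.4 units in Eph_EN tumours, 1.27 ± 0.37 with an adjusted p of 0.207. It passed without Eph_EN_DN tumour 2 (1.98, adjusted p = 0.00719) and without Eph_EN tumour 1 (1.65, adjusted p = 0.00868), stood at 0.55 without Eph_EN_DN tumour 1 and 0.88 without Eph_EN tumour 2, and at 0.79 with a pseudocount of 64. With a lone tumour in a group, that tumour is assumed to vary like the other group, whose 2 tumours and the other genes give the spread. Over all other settings the adjusted p ran from 0.00719 to 0.860.

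Cox8b, the form of heart, skeletal muscle and brown fat, read 12.3 and 87.5 units in Eph_EN_DN tumours, against 24.5 and 20.0 units in Eph_EN tumours. Only Eph_EN_DN tumour 2 stood out, so the difference of 0.50 ± 0.50 (adjusted p = 0.795) joins a low and a high value, and it was 1.44 without Eph_EN_DN tumour 1, and without tumour 2 the gene did not pass the filter. In the same tumour the adipocyte markers summed to 6862 units. Of 6 brown fat markers, Ucp1, Otop1 and Cidea read highest there, though none of them passed the filter. Ucp1 was at 25.4 against 3.81 to 9.69 units and Otop1 at 44.8 against 2.87 to 15.8 units. Cidea was at 13.5 against 3.93 to 12.3 units, a narrow gap. Elovl3 and Zic1 were not highest there, and Dio2, the 1 past the filter, was lowest (21.0 against 36.2 to 45.5 units). The 6 summed to 95.4 and 152 units in Eph_EN_DN against 105 and 123 units in Eph_EN tumours. The part of fat cells in this value was not tested. Cox7a1, the matching form of the same tissues, did not pass the filter and read 19.0 and 27.5 units against 9.45 and 14.1 units.

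Cox6a2, the muscle form of Cox6a1, read 118 and 88.0 units in Eph_EN_DN and 93.5 and 87.5 units in Eph_EN tumours (0.15 ± 0.22). Cox4i2, the lung form of Cox4i1, read 58.5 and 80.0 units against 86.4 and 67.0 units (-0.12 ± 0.23), and Cox8c, a testis form, 248 and 237 against 227 and 218 units (0.12 ± 0.21). Cox6b2, also a testis form, did not pass the filter, with 20.8 and 28.5 units against 33.9 and 16.5 units. Ndufa4, counted with complex I by its symbol though it is now known as a component of complex IV, read 1668 and 1690.3 units in Eph_EN_DN and 1558 and 1413 units in Eph_EN tumours (0.18 ± 0.18), and its hypoxia-induced relative Ndufa4l2 49.3 and 26.1 against 42.5 and 40.7 units (-0.13 ± 0.33). Cox7c, a subunit of most tissues, was read by a dim probe set, with 45.8 and 46.1 against 38.1 and 27.8 units, and Ndufb4 likewise, with 22.9 and 36.2 against 18.3 and 18.6 units.

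**Figure D3:**
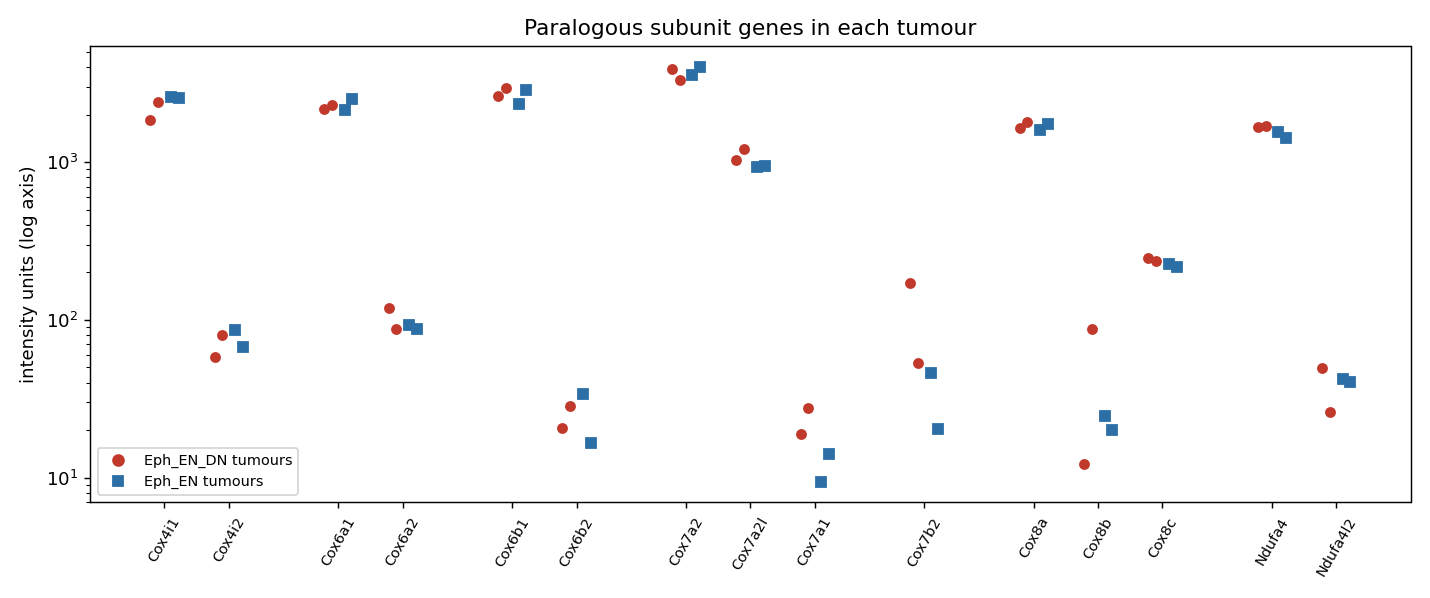
Signal in each tumour (intensity units, logarithmic axis, circles for Eph_EN_DN left of squares for Eph_EN) for the paralogous subunits of complex IV and for Ndufa4 and Ndufa4l2. Different probe sets have no common scale, so heights compare tumours within a gene only. Cox8b is at 87.5 units in 1 Eph_EN_DN tumour and at 12.3 to 24.5 units in the other 3 tumours.

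In complex V the subunits of the catalytic head had differences near 0. Atp5b, the catalytic beta subunit, read 1609.9 and 1627 units in Eph_EN_DN and 1669 and 1565 units in Eph_EN tumours, with a difference of 0.0018 ± 0.18 (95% interval -0.38 to 0.39), and Atp5a1, the alpha subunit, was at -0.023 ± 0.18, with its other probe sets at 0.25 and 0.42. Of the central stalk, Atp5c1, the gamma subunit that turns inside the catalytic head, read 1136 and 1314 units against 829 and 1053 units (0.38 ± 0.20, adjusted p = 0.570). Atp5e, the small epsilon subunit at its foot, read 905 and 1167 units in Eph_EN_DN and 1194 and 1325 units in Eph_EN tumours (-0.29 ± 0.20, adjusted p = 0.694). These had no overlap and opposite signs, and neither passed.

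The peripheral stalk, which keeps the head from turning, was represented by Atp5h at 1925 and 1849 against 1279.6 and 1634 units (0.38 ± 0.19, adjusted p = 0.540), Atp5pb at 0.26, Atp5o at -0.095 and Atp5j at -0.10. By the brightest probe sets the groups overlapped in Atp5o and Atp5j but not in Atp5h and Atp5pb. The second probe set of Atp5h was at 0.28, also without overlap. That of Atp5pb was at 0.036 with overlapping groups (1257 and 1133 against 1198 and 1130 units). The second probe set of Atp5o was at 0.40, the widest disagreement among the probe sets of a member (0.50). The genes Atp5g1, Atp5g2 and Atp5g3 encode an identical mature c subunit, the ring that turns as protons pass. They were at -0.049 ± 0.24, 0.024 ± 0.20 (-0.075 with centred arrays) and -0.17 ± 0.18, and only in Atp5g3 (1906 and 1809 against 1995 and 2195 units) did the groups not overlap. The small membrane subunit Atp5j2 had 3565 and 3689 units in Eph_EN_DN and 3571 and 3284 units in Eph_EN tumours (0.082 ± 0.16, or -0.016 with centred arrays).

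Of the 78 members, 43 had more than 1 probe set past the filter, which allows a second reading of the gene on the same arrays. In 10 of these 43 the probe sets differed in sign, and the median spread among the probe sets of a gene was 0.15. All 6 probe sets of Ndufs8 were positive, from 0.15 to 0.52, and in each both Eph_EN_DN tumours lay above both Eph_EN tumours. Both probe sets of Ndufa5 (0.55 and 0.44) and of Ndufa3 (0.50 and 0.39) did likewise. Ndufv2 was at 0.22 by its brightest probe set and at 0.68 and 0.61 by the others, with 1209 and 1205 units in Eph_EN_DN against 689 and 816 units in Eph_EN tumours on the one at 0.68. Ndufa9, Ndufa2, Uqcrc1 and Cox7b2 had a single such probe set, so a second reading is not given here. Probe sets marked _x_at or _s_at, which may also read related transcripts such as pseudogenes, served 6 and 10 of the 78 members, and Ndufa3, Ndufs8 and Ndufa2 were among them.

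**Figure D4:**
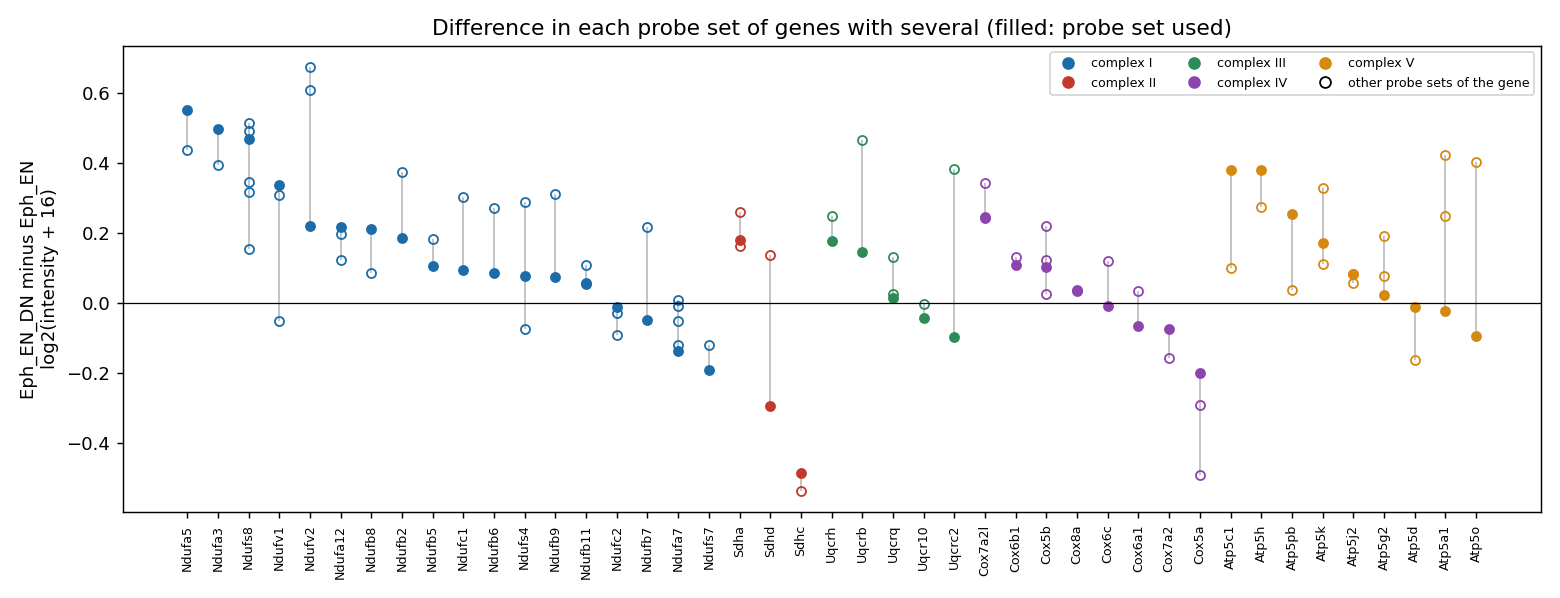
Difference (Eph_EN_DN minus Eph_EN, log2(intensity + 16), no error shown) in each probe set of the 43 members with several past the filter, joined by a line for each gene, with the brightest probe set filled. Ndufs8, Ndufa5 and Ndufa3 lie above 0 and Sdhc and Cox5a below 0 in every probe set, while Uqcrc2 and Atp5o cross 0.

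The genes that build, feed and regulate the chain were taken as 8 lists, and limma called 0 of their members, where 0.135% of all genes were higher and 0.420% lower. At an unadjusted p under 0.05 8 of 76 mitochondrial ribosomal proteins (10.5%) stood, 7 positive and 1 negative, near the 9.80% of all genes. Electron carriers and quinone enzymes had 4 of 21 (19.0%), 2 positive and 2 negative. Glycolysis had 2 of 16 (12.5%), the TCA cycle list 2 of 17 (11.8%) and cytosolic ribosomal proteins 4 of 43 (9.30%). Assembly factors had 3 of 41 (7.32%), biogenesis regulators 1 of 14 (7.14%) and carriers and uncoupling proteins 0 of 7. Assembly factors had a median of 0.071 (41 tested, 23 positive), with Ndufaf4, a complex I assembly factor, the farthest from 0 at 467 and 274 against 178 and 323 units (0.55 ± 0.28, adjusted p = 0.558, overlapping groups). Electron carriers and quinone enzymes had a median of 0.095 (21 tested, 13 positive), led by Coq3, a methyltransferase of ubiquinone synthesis, at 80.5 and 75.7 units in Eph_EN_DN and 44.2 and 25.8 units in Eph_EN tumours (0.91 ± 0.27, adjusted p = 0.216). Genes of the TCA cycle and pyruvate dehydrogenase had a median of 0.21 (17 tested, 11 positive), with Suclg2, a succinyl-CoA ligase subunit, at 0.49. In that list 7 genes (41.2%) had both Eph_EN_DN tumours above and 2 (11.8%) below, against 20.2% and 20.0% of all genes.

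Regulators of mitochondrial biogenesis had a median of 0.046 (14 tested, 9 positive), with Tfb2m, a mitochondrial transcription factor, at 0.57. Mitochondrial ribosomal proteins had a median of 0.10 (76 tested, 52 positive), close to the 0.094 of the chain, with Mrps25 at 0.74, and carriers and uncoupling proteins one of 0.10 (7 tested, 5 positive), with Slc25a5, an ADP/ATP carrier, at 0.20. Cytosolic ribosomal proteins, which like many subunits of the chain have short and abundant transcripts, had a median of 0.056 (43 tested, 25 positive), with Rpl37 at 1968 and 2255 against 1149.8 and 1289.8 units (0.78 ± 0.19, adjusted p = 0.0859). Glycolysis genes had a median of 0.049 (16 tested, 10 positive), with Hk2, the hexokinase common in tumours, at 0.57. Complex I, at 0.17, stood between the TCA cycle list at 0.21 and the other 7 lists at 0.046 to 0.10.

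**Figure D5:**
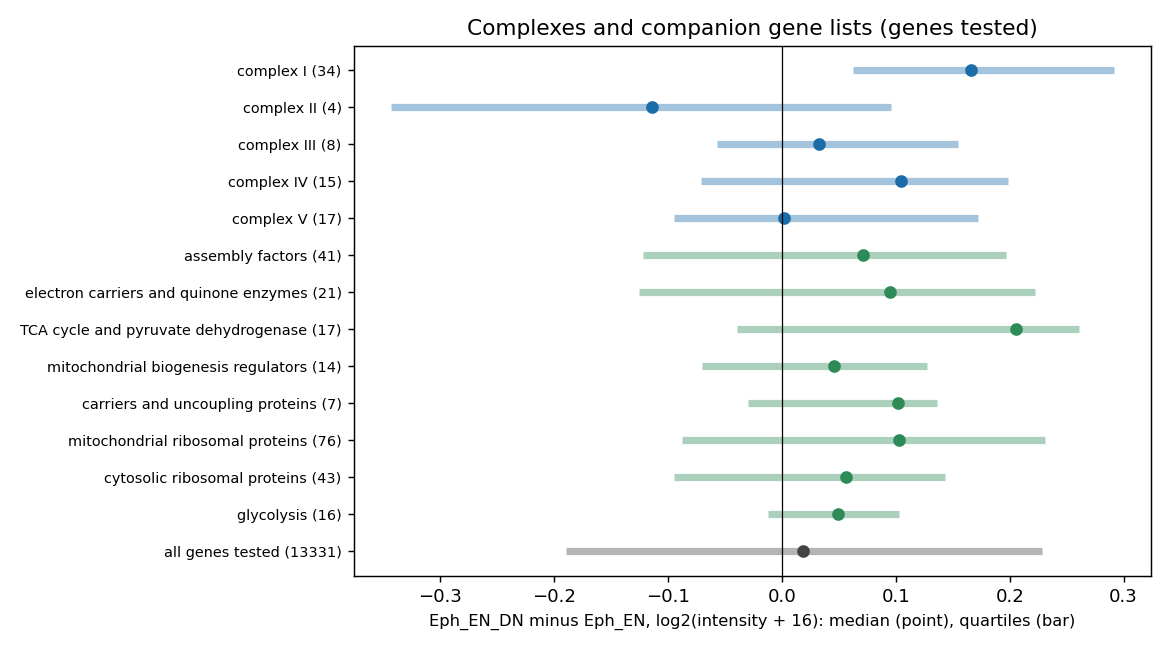
Median difference (point) and quartiles (bar) of complexes I to V (blue), 8 companion lists (green) and all 13331 genes tested (grey), Eph_EN_DN minus Eph_EN on the scale log2(intensity + 16), with the number of genes tested in brackets. The bar of complex I lies wholly above 0, from 0.063 to 0.29, and every other bar crosses 0.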

How the data were processed

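Total RNA was extracted with Trizol, cleaned on columns and labelled as biotinylated cRNA, per the labels' protocols. The deposited values are linear intensities of 45101 probe sets for 4 arrays, and neither labels nor headers say how the authors summarised, corrected or scaled them. Precision is limited by the number of arrays.

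Names came from the platform annotation: beside 64 controls, 34945 probe sets had 1 symbol, 932 several and 9160 none. Controls and the dimmest 40% by mean log2(intensity + 16) were left out, and the brightest of 22555 named probe sets was taken for each of 13331 genes. The fit used limma 3.58.1 under R 4.3.3 (eBayes after lmFit, with an intensity trend), with two-sided p-values adjusted by Benjamini-Hochberg, without a block for the tumour number. The fit was tested on simulated arrays with independent noise for each gene and changes in brighter genes only, so spread shared across a tumour was not covered. Intervals are at 95% and unadjusted. Members, lists, motifs and the rule for named genes (members past the threshold; per complex the brightest and the 2 farthest from 0 on each side; paralogues, c-subunit and Sdh genes; the farthest member of each companion list) were chosen with earlier results of these data known, and other genes after their values were seen. 15 alternatives changed the filter, scaling, pseudocount, probe sets, variance model, pairing or arrays.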

Additional observations from a re-analysis of the deposited data

How the results depend on the processing

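Of 15 alternatives, 13 gave 0 members past the threshold, and leaving out 1 tumour at a time gave 0 to 1 (Cox7b2); companion lists gave 0 in all. The standard errors of the members, 0.16 to 0.50, limit what could pass. Equal tumour numbers share nothing in the labels (correlation of deviations across genes -0.065); with the tumour number as a replicate block 0 members, 3 genes higher and 8 lower passed. Against 18 higher and 56 lower in all, 9 and 29 passed with quantile normalization, 7 and 48 with median centring, 1 and 4 without the intensity trend, 7 and 28 with probe sets averaged, and 11 to 71 and 11 to 85 with a tumour left out.

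The cause of the following was not tested. With median centring the medians were -0.080 for all genes, -0.0048 for all members, -0.21 for complex II, 0.0058 for IV and -0.097 for V, and the members without overlap 15 above and 11 below, 9 of those above in complex I. With quantile normalization they were -0.015 for all genes, 0.14 for complex IV and 0.086 for V; with probe sets averaged -0.0059 for complex II, 0.12 for IV and 0.097 for V; for complex IV also 0.035 with the dimmest 60% left out and 0.038 without _x_at probe sets. With a tumour left out, medians ran from -0.018 to 0.042 for all genes, 0.049 to 0.14 for all members, 0.085 to 0.22 for complex I, -0.20 to -0.064 for II, -0.10 to 0.13 for III, 0.028 to 0.094 for IV and -0.0077 to 0.10 for V. The members above ran from 32 to 45, those below from 12 to 19 and those above in complex I from 16 to 24. Such counts rise by design with a tumour left out, since 1 tumour overlaps less. The share of all genes without overlap is given for the main fit only. Neither these counts nor those with median centring can therefore be read as an excess.

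Differences near 0 changed sign. With median centring Atp5g2 was at -0.075, Sdhb at -0.031, Atp5j2 at -0.016 and Cox8a at -0.063; with quantile normalization Cox7a2 was at 0.049 and Cox6a1 at 0.068; with probe sets averaged Uqcrc2 was at 0.14. With a tumour left out these ran from -0.43 to 0.031 for Cox5a, from -0.18 to 0.23 for Atp5g2, from -0.36 to 0.26 for Atp5g1, from -0.19 to 0.043 for Cox7a2, from -0.18 to 0.049 for Cox6a1, from -0.033 to 0.34 for Cox6a2, from -0.0058 to 0.14 for Sdhb, from -0.31 to 0.059 for Cox4i2, from -0.38 to 0.11 for Ndufa8, from -0.32 to 0.12 for Uqcrc2, from -0.45 to 0.18 for Ndufa4l2, from -0.040 to 0.26 for Cox6b1, from -0.029 to 0.099 for Cox8a and from -0.024 to 0.38 for Uqcrh. The call of Cox7b2 was gained without Eph_EN_DN tumour 2 or Eph_EN tumour 1.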
